A study of Mus musculus with 13 samples.

Results

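10 genes that buffer metal ions, break down heme, or store, import, export and sense iron were followed in the lung of mice that had breathed high oxygen. They are Mt1, Mt2, Hmox1, Fth1, Ftl1, Tfrc, Slc40a1, Slc39a14, Trf and Ireb2, chosen by symbol as 10 of the 32544 rows of the deposited count table, and all 10 were found there. Of these, 9 passed the filter on low counts and were tested among 12496 genes, and Hmox1 did not pass it. The lungs came from wild-type male C57BL/6J mice, 7 weeks old when purchased and, by the paper's methods, older during the experiments. One group breathed 21% O2 (normoxia, n = 7 libraries) and the other 80% O2 (hyperoxia, n = 6 libraries), each for 5 days. The lungs were perfused with cold buffer and frozen, and the RNA was read by Quant-seq, a method that reads each polyadenylated transcript near its 3′ end, where a long and a short transcript give about the same number of reads. The labels count samples and do not say that each is a separate animal, so the p-values measure the spread between these samples.

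Metallothioneins are small cysteine-rich proteins that bind zinc and copper. Their genes are switched on by the zinc sensor MTF1, which binds metal response elements in their promoters, and they are also known to respond to glucocorticoids, inflammatory cytokines and oxidants. Heme oxygenase cuts heme and frees its iron, which ferritin can then store inside a shell of heavy (Fth1) and light (Ftl1) chains. When iron is scarce, the iron regulatory proteins, one of which is encoded by Ireb2, bind a hairpin called the iron-responsive element. Bound in the 5′ untranslated region (UTR) of the ferritin and ferroportin mRNAs it blocks translation, and bound in the 3′ UTR of the transferrin receptor mRNA it keeps that mRNA from decay. The level of ferritin mRNA therefore need not follow the level of ferritin protein, which was not measured here.

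The promoters of Mt1 and Mt2 are shown because these 2 genes had the largest rises among the 9 members tested. Both lie on chromosome 8, on the plus strand, with 5513 bases between the end of Mt2 and the start of Mt1 (GRCm38, GENCODE M21). The sequences are RefSeq's for GRCm38.p6 and run from 250 bases before the start site to 50 after it. Capitals mark the core of the metal response element, TGCACNC or TGCGCNC, searched on both strands.
Mt1, chr8:94178839-94179138 (+ strand): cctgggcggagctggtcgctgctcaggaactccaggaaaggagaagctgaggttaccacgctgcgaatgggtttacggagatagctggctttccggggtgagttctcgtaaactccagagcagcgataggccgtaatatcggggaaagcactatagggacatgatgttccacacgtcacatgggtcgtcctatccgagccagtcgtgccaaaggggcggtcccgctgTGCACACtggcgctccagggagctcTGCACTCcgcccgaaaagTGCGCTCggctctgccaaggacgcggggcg
Mt2, chr8:94172368-94172667 (+ strand): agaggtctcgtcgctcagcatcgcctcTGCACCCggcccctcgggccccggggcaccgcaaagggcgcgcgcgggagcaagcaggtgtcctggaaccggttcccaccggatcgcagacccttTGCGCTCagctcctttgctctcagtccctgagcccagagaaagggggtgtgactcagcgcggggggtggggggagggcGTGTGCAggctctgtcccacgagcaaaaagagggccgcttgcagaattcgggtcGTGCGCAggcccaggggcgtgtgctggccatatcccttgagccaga
Mt1 held 3 cores and Mt2 held 4. Counted from the start site as 0, those of Mt1 began at −23, 2 and 20, and those of Mt2 at −223, −128, −50 and 4. At least 1 core stood in 25.7% of the 32851 promoters of the same length, at least 3 in 1.97% and at least 4 in 0.517%. The promoter windows of Fth1, Ftl1 and Ireb2 held none, and of the 2 windows of Tfrc 1 held a pair that overlap on opposite strands. The core of the antioxidant response element, TGACNNNGC on either strand, stood once in the Mt2 window, at −79, and in none of the other member windows. It stood in 12.4% of all promoters. Sequence outside these windows was not searched, so an element there would be missed. Hmox1, Slc40a1, Slc39a14 and Trf were not matched in the promoter table. These matches describe the sequence and were not tested as binding sites.

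The iron-responsive elements of the storage, uptake and export genes are shown because the mRNAs that carry them are the ones compared below. The search, in GENCODE M21 transcripts on GRCm38, took an unpaired C, a stem of 5 bases, the loop CAGTGN and 5 bases able to pair with that stem, with G and U pairs allowed. Capitals mark the unpaired C and the loop.
Fth1 5′ UTR, chr19:9982734-9982758 (+ strand): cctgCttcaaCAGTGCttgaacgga
Ftl1 5′ UTR, chr7:45459781-45459805 (- strand): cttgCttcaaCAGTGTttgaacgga
Tfrc 3′ UTR, chr16:32631221-32631245 (+ strand): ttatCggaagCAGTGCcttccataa
Tfrc 3′ UTR, chr16:32631600-32631624 (+ strand): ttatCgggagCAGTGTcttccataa
Tfrc 3′ UTR, chr16:32631665-32631689 (+ strand): atatCggagaCAGTGAtctccatat
Tfrc 3′ UTR, chr16:32631712-32631736 (+ strand): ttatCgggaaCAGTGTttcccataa
Slc40a1 5′ UTR, chr1:45925467-45925491 (- strand): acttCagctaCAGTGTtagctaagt
Fth1, Ftl1 and Slc40a1 each held 1 such hairpin in the 5′ UTR, and Tfrc held 4 in the 3′ UTR. Among 21877 protein-coding genes, 0.142% held one in a 5′ UTR and 0.59% in a 3′ UTR. The first stem arm, the bases between the unpaired C and the loop, was the same in Fth1 and Ftl1. Mt1, Mt2, Hmox1, Slc39a14, Trf and Ireb2 had no match in either UTR, which says only that these letters were not found there.

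Libraries held between 1607111 and 4540288 counts. A count of 3 corresponds to 0.656 to 1.84 CPM (counts scaled to a common library total, here with TMM factors, which correct for library composition), and the counting interval of Hmox1 and the floors given below cover counting error only. Hyperoxia replicate 1, called Hyperoxia 1 from here on, stood apart. Its mean correlation of log2 CPM with the other libraries was 0.779, against 0.886 to 0.919 for the rest. It was also low in genes with short transcripts. For 931 genes with a median transcript length up to 1000 bases, its log2 CPM lay a median of −1.16 from the median of the other hyperoxic libraries, compared with −0.40 to 0.33 for each of the other 12 libraries against its own group. For 3200 genes with transcripts over 4000 bases the median was 0.07. Mt1, Mt2, Fth1 and Ftl1 are the 4 members with transcripts up to 1000 bases, so their fold changes and ratios are given with and without this library. The deviations by transcript length are plotted for this library, with the 9 members marked.

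**Figure D1:**
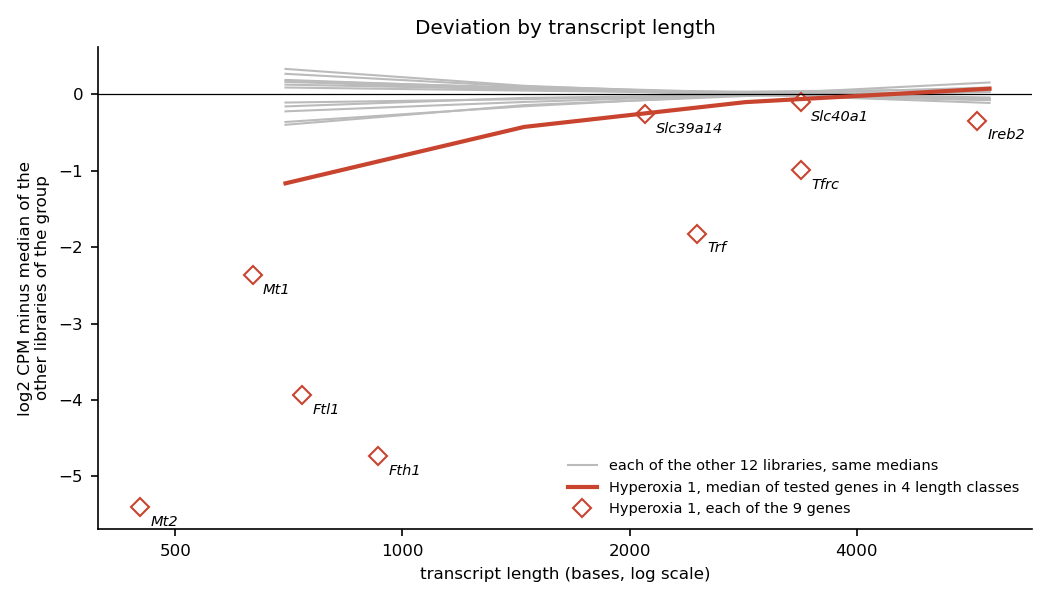
Deviation of Hyperoxia 1 by transcript length. The x axis is the median length in bases of a gene's protein-coding transcripts (log scale), and the y axis is log2 CPM minus the median of the other libraries of the same group. The red line gives the median of all tested genes in 4 length classes for Hyperoxia 1, grey lines the same for each of the other 12 libraries, and diamonds the 9 members in Hyperoxia 1. Mt2 lay at −5.40, Fth1 at −4.73, Ftl1 at −3.93 and Mt1 at −2.36. Of the longer members, Trf lay at −1.82, Tfrc at −0.99, Ireb2 at −0.34, Slc39a14 at −0.25 and Slc40a1 at −0.10.

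Across the members, the metallothioneins Mt1 and Mt2 and the metal importer Slc39a14 rose in hyperoxia and transferrin (Trf) fell. The other 5 of the 9 members tested, among them both ferritin chains, did not pass the test with all libraries. By the edgeR quasi-likelihood test, with Benjamini-Hochberg adjustment over all genes and a threshold of 0.05, 4 of 9 members were thus called, 3 higher and 1 lower. Over all 12496 genes 22.6% were called, 11.8% as higher and 10.8% as lower, and the median log2 fold change was −0.03 for all genes and 0.46 for the 9 members. There were 1473 higher and 1346 lower genes here, but 1179 higher and 1579 lower with library size as the only scaling, where the median of all genes was −0.10. With limma on the deposited log values, which changes the test as well, they were 1097 and 1729, with a median of −0.16. In 1 of the 9 members, Trf, no hyperoxic library overlapped a normoxic one, compared with 10.8% of all genes. Without Hyperoxia 1 the test called 5 of 9 members against 28.5% of 12752 genes, and the groups did not overlap in 3 of 9 members, Mt1, Mt2 and Trf, against 15.3% of genes.

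**Figure D2:**
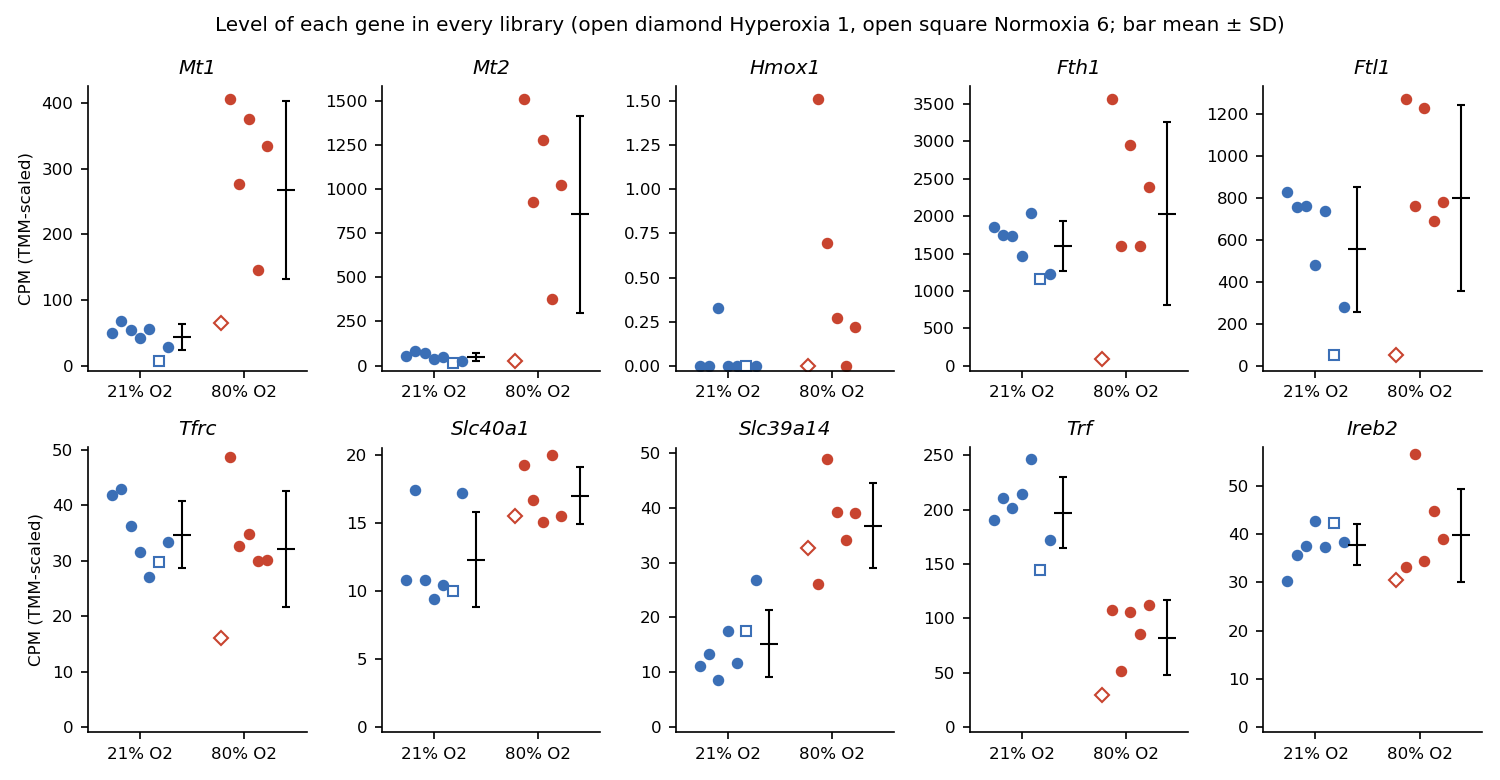
Level of the 10 genes in every library. Each panel gives TMM-scaled CPM on a linear axis for 7 normoxic (blue) and 6 hyperoxic (red) libraries, with the mean and SD as a bar except for Hmox1. Open diamonds are Hyperoxia 1 and open squares Normoxia 6. Mt1, Mt2 and Slc39a14 sit higher in hyperoxia and Trf lower, and Hyperoxia 1 lies at or near the bottom of its group for Mt1, Mt2, Fth1, Ftl1, Tfrc and Trf.

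Mt2 had the larger of the 2 metallothionein changes. Its level in normoxia was lowest at 12.8 CPM in Normoxia 6, with a median of 48.4 and a highest value of 81.8 CPM. In hyperoxia it was 23.6 CPM in Hyperoxia 1, and 380, 929, 1026, 1279 and 1510 CPM in the other 5 libraries. Those 5 were all above the highest normoxic library, whereas Hyperoxia 1 lay inside the normoxic range. The mean was 47.5 ± 24.2 CPM under 21% O2 and 858 ± 559 CPM under 80% O2 (SD, n = 7 and 6). The log2 fold change was 4.18 (SE 0.65, adjusted p = 2.8e-04, edgeR), a change of 18.1-fold. Only 3 of the 12496 genes tested had a larger positive fold change, so that Mt2 ranked 4. Without Hyperoxia 1 it was 4.45 (SE 0.39, adjusted p = 6.6e-07, edgeR).

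Mt1 moved the same way by less. In normoxia it ran from 7.53 CPM in Normoxia 6 through a median of 49.3 to 67.8 CPM. In hyperoxia Hyperoxia 1 had 64.3 CPM and the other 5 libraries 146, 277, 334, 376 and 406 CPM. All 6 hyperoxic libraries were above the normoxic median, and 1 of them, Hyperoxia 1, was below the highest normoxic library. Mt1 had a log2 fold change of 2.63 (SE 0.44, adjusted p = 5.3e-04, edgeR), or 6.17-fold, and 2.85 (SE 0.36, adjusted p = 2.4e-05, edgeR) without Hyperoxia 1. Both genes were called under all 22 alternatives tried. Mt1 and Mt2 together summed to 91.0 ± 43.6 CPM under 21% O2 and to 1125 ± 693 CPM under 80% O2 (SD, n = 7 and 6), or 1333 ± 527 CPM without Hyperoxia 1 (SD, n = 5).

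The library names carry letters in 2 runs, B to M (5 normoxic and 3 hyperoxic libraries) and O to S (2 and 3), and the labels do not say what the letters stand for. The difference in mean log2 CPM of Mt2 was 2.50 within the first run, or 4.37 there without Hyperoxia 1, and 5.40 within the second, which holds Normoxia 6. For Mt1 it was 1.85 within the first run, or 2.64 without Hyperoxia 1, and 4.11 within the second. The groups of the second run did not overlap for either gene, and those of the first run overlapped for both through Hyperoxia 1 alone.

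The balance of the 2 metallothioneins was read from their ratio, whose difference did not pass the test with all libraries. In normoxia the Mt2 level divided by the Mt1 level lay between 0.859 and 1.70. In Hyperoxia 2 to 6 it was 3.72, 3.35, 3.40, 2.60 and 3.07, and in Hyperoxia 1 it was 0.367, below every normoxic library. As a log2 ratio of Mt1 to Mt2 the means were −0.15 ± 0.33 in normoxia and −1.16 ± 1.28 in hyperoxia (SD, n = 7 and 6). The difference of −1.01 had p = 0.0699 (two-sided exact permutation test over all 1716 ways to assign the libraries, smallest possible p 0.000583), or 0.105 adjusted over the 3 ratios tested. Without Hyperoxia 1 the difference was −1.53, with p = 0.00126 in the exact test, the smallest that 792 assignments can give, and 0.00379 adjusted. The call on this ratio therefore rests on 1 library. The other metallothionein rows were almost empty, with 1 count in all for Mt3 and 0 for Mt4.

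**Figure D3:**
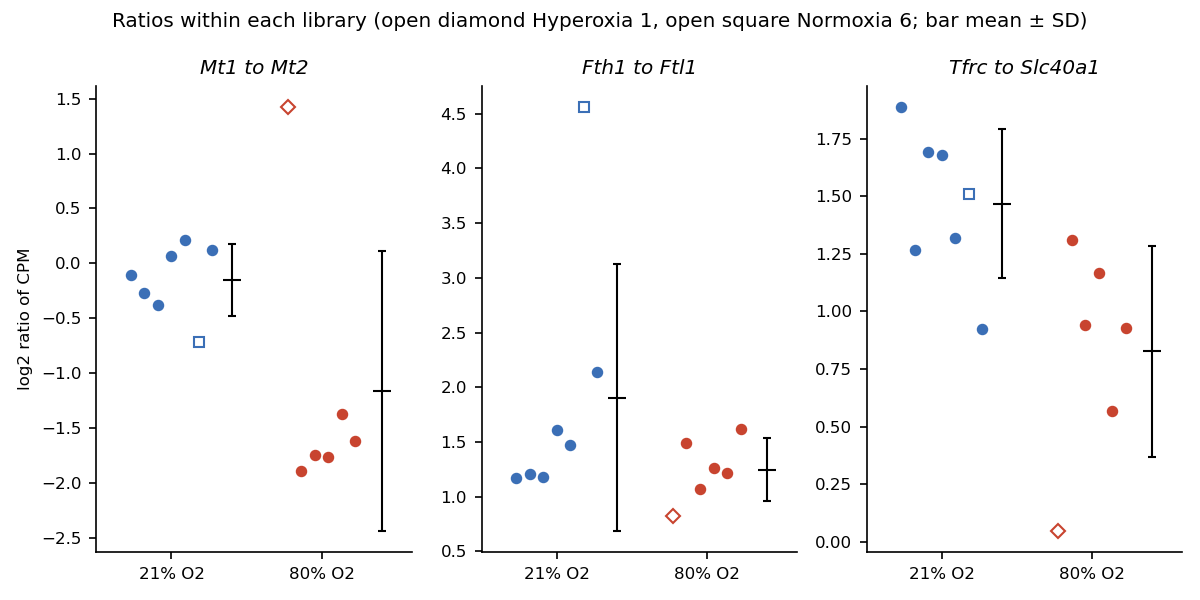
Ratios of 3 gene pairs within each library. The y axis of each panel is the log2 ratio of CPM for 7 normoxic (blue) and 6 hyperoxic (red) libraries, with mean and SD bars, and open symbols mark Hyperoxia 1 (diamond) and Normoxia 6 (square). The ratio of Mt1 to Mt2 is below every normoxic library in 5 hyperoxic libraries and above all of them in Hyperoxia 1, and Fth1 to Ftl1 is far above the rest in Normoxia 6.

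Hmox1, the inducible heme oxygenase, was barely counted in these libraries. It had 1 count among 19748608 in normoxia, in Normoxia 3, and 8 counts among 19373648 in hyperoxia, spread over 4 of 6 libraries. The levels in hyperoxia were 1.51 CPM in Hyperoxia 2, 0.695 in Hyperoxia 3, 0.269 in Hyperoxia 4 and 0.219 in Hyperoxia 6, with 0 counts in Hyperoxia 1 and Hyperoxia 5. No library but Hyperoxia 2 held more than 3 counts. The ratio of the pooled counts was 8.54, with an exact 95% counting interval from 1.15 to 379 that leaves out the spread between libraries. When no filter was applied, the adjusted p of Hmox1 was 0.12 (edgeR). No change in Hmox1 could be called from so few counts. Whether the annotation used for counting covers the 3′ end of Hmox1, from which Quant-seq reads come, is not given in the sources used here. Its constitutive relative Hmox2 was counted, with 43.7 ± 9.49 CPM under 21% O2 and 54.3 ± 10.5 CPM under 80% O2 (SD, n = 7 and 6), with an adjusted p of 0.23 (edgeR).

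Fth1, the ferritin heavy chain that oxidises iron on its way into the shell, was at 1160 CPM in the lowest normoxic library, 1730 at the median and 2043 in the highest. In hyperoxia it was 89.5 CPM in Hyperoxia 1, and 1602, 1604, 2395, 2953 and 3568 CPM in the others. Of the 6 hyperoxic libraries 3 lay above the whole normoxic range, 2 inside it and 1 far below it. With all libraries the log2 fold change was 0.35 (95% interval −0.65 to 1.34, adjusted p = 0.65, edgeR). Without Hyperoxia 1 it was 0.61 (95% interval 0.18 to 1.04, adjusted p = 0.032, edgeR), so the call rests on this library. The groups still overlapped then. Without both Hyperoxia 1 and Normoxia 6 it was 0.53, with an adjusted p of 0.063. Within the letter runs the difference in mean log2 CPM was −1.13 in B to M and 0.92 in O to S, and leaving Hyperoxia 1 out of B to M turned it to 0.44.

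Ftl1, the light chain that helps to lay down the iron core, did not pass the test with or without that library. Normoxic levels ran from 48.5 CPM in Normoxia 6, with 277 CPM in Normoxia 7, through a median of 738 to 827 CPM. Hyperoxic levels were 50.4 CPM in Hyperoxia 1 and 691 to 1274 CPM in the other 5. One library of each group was thus more than 5 times below the next lowest. The log2 fold change was 0.52 (95% interval −0.70 to 1.74, adjusted p = 0.56, edgeR), and 0.79 (−0.13 to 1.71, adjusted p = 0.19) without Hyperoxia 1. Within the letter runs the difference in mean log2 CPM was −0.93 in B to M, or 0.49 there without Hyperoxia 1, and 2.90 in O to S, where the groups did not overlap and Normoxia 6 and 7 are the only normoxic libraries. Of the 31-base words in Ftl1 transcripts, 57.7% also occur in transcripts of other genes, with Ftl1-ps1 sharing the most, so its count is uncertain. Ftl1-ps1 was not matched to a row of the count table, so its part in that count was not tested. The pseudogene rows that were matched, Ftl2-ps, Gm15590 and Gm12164, held 17, 3 and 0 counts in all. For Fth1 the shared part was 3.24%, and the rows Gm6977 and Fth-ps2 held 91 and 3 counts.

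The log2 ratio of Fth1 to Ftl1 was 1.90 ± 1.22 in normoxia and 1.25 ± 0.29 in hyperoxia (SD, n = 7 and 6). Normoxia 6 had 4.56 and Normoxia 7 had 2.14, and the other normoxic libraries 1.17 to 1.61. The difference of −0.66 had p = 0.209 in the exact permutation test, adjusted over the 3 ratios also 0.209. Without Hyperoxia 1 it was −0.57 (p = 0.417, exact permutation test), without Normoxia 6 it was −0.22 (adjusted p = 0.314, exact), and without both −0.13 (adjusted p = 0.556, exact). It was −0.20 within run B to M, or −0.05 there without Hyperoxia 1, and −1.98 within run O to S, which holds the only 2 normoxic libraries above 2. With the letter run as a term it was −0.90, with an adjusted p of 0.0241 by exact permutation within runs. That call was not recomputed without Normoxia 6.

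Slc39a14 (ZIP14), a cell surface importer of zinc, manganese and non-transferrin-bound iron, rose. Its normoxic levels were 8.50 CPM at the lowest, 13.3 at the median and 26.8 at the highest, in Normoxia 7. Hyperoxic levels ran from 26.1 CPM in Hyperoxia 2 through a median of 36.6 to 49.0 CPM. All 6 hyperoxic libraries were above the normoxic median, and the groups overlapped through Normoxia 7 and Hyperoxia 2 alone. Its log2 fold change was 1.26 (SE 0.24, adjusted p = 0.0015, edgeR), or 2.40-fold, and 1.30 without Hyperoxia 1. Within the letter runs the difference was 1.47 and 0.77, and the groups did not overlap in either run.

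Tfrc, the receptor that takes up transferrin-bound iron, showed no change that the test could call. It was at 27.0 to 43.0 CPM in normoxia and at 16.1 CPM in Hyperoxia 1 and 30.0 to 48.7 CPM in the other hyperoxic libraries. The log2 fold change was −0.11 (95% interval −0.55 to 0.33, adjusted p = 0.75, edgeR), and 0.03 (−0.32 to 0.38) without Hyperoxia 1.

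Slc40a1 (ferroportin), the iron exporter, was at 9.42 CPM in the lowest normoxic library, 10.8 at the median and 17.5 in the highest. With 80% O2 it ran from 15.1 through 16.1 to 20.01 CPM. All 6 hyperoxic libraries were above the normoxic median, yet Normoxia 2 and Normoxia 7 reached 17.5 and 17.2 CPM, inside the hyperoxic range. The log2 fold change was 0.46 (SE 0.20, adjusted p = 0.12, edgeR), and 0.50 (adjusted p = 0.083) without Hyperoxia 1.

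The ratio of Tfrc to Slc40a1 sets uptake against export within each library, and it was lower in hyperoxia. The log2 ratio of Tfrc to Slc40a1 was 1.47 ± 0.32 in normoxia and 0.83 ± 0.46 in hyperoxia (SD, n = 7 and 6). The single values were 0.92 in Normoxia 7 and 1.27 to 1.89 in the other normoxic libraries, against 0.05 in Hyperoxia 1, 0.57 in Hyperoxia 5 and 0.93 to 1.31 in the other hyperoxic libraries. The difference of −0.64 had p = 0.0111 in the exact permutation test, or 0.0332 adjusted over the 3 ratios. Without Hyperoxia 1 it was −0.48 (adjusted p = 0.0379 by exact permutation). The adjusted p was above 0.05 in 8 of the 13 exact permutation tests that each leave out 1 library (Normoxia 1 to 6, Hyperoxia 5 and Hyperoxia 6), the highest being 0.0779.

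Trf, the plasma carrier of ferric iron, fell, and it was the 1 member whose groups did not overlap with all libraries. Normoxic levels were 144 CPM at the lowest, 201 at the median and 246 at the highest. Hyperoxic levels were 29.5 CPM in Hyperoxia 1, 51.8 in Hyperoxia 3 and 85.6, 106, 108 and 112 CPM in the others. Trf had a log2 fold change of −1.25 (SE 0.26, adjusted p = 0.0024, edgeR), and −1.07 (SE 0.18, adjusted p = 3.1e-04, edgeR) without Hyperoxia 1. The difference was −1.93 within run B to M and −0.64 within run O to S, with no overlap in either. The annotated gene Gm20425 overlaps Trf on the same strand. Of the 31-base words in Trf transcripts 63.8% also occur in transcripts of other genes, with Gm20425 sharing the most, but its own row held 0 counts. Summed over 8 markers of alveolar type 2 cells, the surfactant-producing cells of the lung, the level was also lower without overlap. It was 12897 to 23827 CPM in normoxia and 3433 to 7496 CPM in hyperoxia. Sftpc and Sftpa1, with normoxic means of 9637 and 7580 CPM, made up most of that sum. In edgeR 5 of the 8 markers fell (Sftpc, Lamp3, Slc34a2, Sftpa1 and Abca3). Sftpb, Sftpd and Napsa overlapped between the groups and were not called. The part of these cells in the fall of Trf was not tested. In whole lung, fewer cells of a type and less RNA per cell cannot be told apart.

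Ireb2, one of the 2 iron regulatory proteins, was at 30.2 to 42.7 CPM in normoxia and at 30.6 to 56.6 CPM in hyperoxia. Ireb2 had a log2 fold change of 0.08 (95% interval −0.27 to 0.42, adjusted p = 0.79, edgeR). Its relative Aco1, the other iron regulatory protein, had a log2 fold change of −0.03 (adjusted p = 0.96, edgeR).

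**Figure D4:**
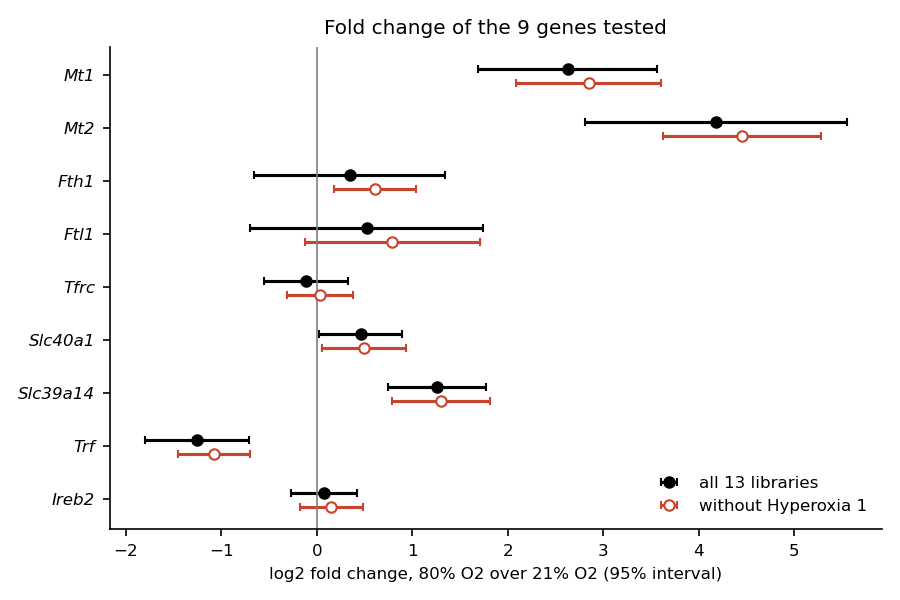
Log2 fold change of the 9 members tested, 80% over 21% O2, with 95% intervals from the edgeR fit. Filled black points use all 13 libraries and open red points leave out Hyperoxia 1. The intervals of Mt1, Mt2, Slc40a1, Slc39a14 and Trf stay clear of 0 in both fits, although Slc40a1 was not called after adjustment over all genes, that of Fth1 only without Hyperoxia 1, and those of Ftl1, Tfrc and Ireb2 include 0 in both.

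Beyond the members, 82 other genes of zinc, copper, heme and iron handling were read from 6 lists. Of these, 68 were tested, and 12 reached an adjusted p under 0.05 (edgeR), 7 higher and 5 lower, which is 17.6% beside the 22.6% of all genes. Their median log2 fold change was −0.02, against −0.03 for all genes. Without Hyperoxia 1 the count was 17 of 69, or 24.6% beside 28.5% of all genes.

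Among 17 zinc genes tested, 1 rose and 0 fell at that threshold (2 and 0 by DESeq2 and at an unadjusted p under 0.05, and 1 and 0 by limma-voom), with a median log2 fold change of 0.18. It was Slc39a6 (ZIP6), a zinc importer, which had 28.4 ± 5.45 CPM under 21% O2 and 48.7 ± 3.58 CPM under 80% O2 (log2 fold change 0.77, adjusted p = 0.0015). Mtf1, the zinc sensor that acts on the metallothionein promoters, was at 42.5 ± 8.07 and 58.1 ± 12.8 CPM (log2 fold change 0.45, adjusted p = 0.063 by edgeR, 0.041 by DESeq2 and 0.066 by limma-voom). Slc30a1, the zinc exporter that MTF1 is known to induce, was at 42.5 ± 7.94 and 48.1 ± 15.6 CPM (0.18, adjusted p = 0.58). Among 8 copper genes, 1 fell, the copper pump Atp7b (log2 fold change −1.17, adjusted p = 0.0038), without overlap between the groups.

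Among 9 heme synthesis enzymes, Cpox, which makes protoporphyrinogen, rose (log2 fold change 0.85, adjusted p = 0.017), and the others did not pass in edgeR, while DESeq2 called 2 and limma-voom 1 of them lower. Without Hyperoxia 1 edgeR also called Ppox (−0.46, adjusted p = 0.033). Alas1, the first enzyme of the path in non-erythroid cells, had a log2 fold change of −0.51. Its adjusted p was 0.057 by edgeR, 0.047 by DESeq2 and 0.036 by limma-voom. Of 13 heme breakdown and transport genes 3 rose and 1 fell, 30.8% of the list beside 22.6% of all genes. Cd163, the scavenger receptor for hemoglobin bound to haptoglobin, had the largest rise, from 3.05 ± 1.17 to 11.0 ± 1.95 CPM (log2 fold change 1.82, adjusted p = 2.4e-04). Blvrb, a biliverdin reductase, rose from a mean of 41.6 to 79.0 CPM (0.93, adjusted p = 3.7e-04), and Lrp1, a receptor for heme bound to hemopexin, rose by less (0.49, adjusted p = 0.036). Haptoglobin (Hp), which binds free hemoglobin, fell from 141 ± 27.4 to 63.1 ± 21.0 CPM (−1.16, adjusted p = 7.2e-04). Cd163, Blvrb and Hp did not overlap between the groups.

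Of 5 genes of ferritin turnover and iron sensing 0 reached the threshold in edgeR, in DESeq2 or in limma-voom. With all libraries 0 had an unadjusted p under 0.05. Without Hyperoxia 1 edgeR still called 0, but 2 had an unadjusted p under 0.05 and all 5 had a log2 fold change above 0. Of 16 other iron transport genes 2 rose and 3 fell, 31.3% of the list, with a median log2 fold change of −0.27. Lcn2, which binds siderophores that carry iron, rose (log2 fold change 1.59, adjusted p = 0.013), as did the metalloreductase Steap2 (0.59, adjusted p = 0.046). The ferric reductase Cybrd1 fell from a range of 9.80 to 16.4 CPM to one of 3.13 to 6.78 CPM (−1.32, adjusted p = 9.5e-04). Steap3, the reductase of the transferrin cycle, had −0.92 (adjusted p = 0.022), and Hfe, which binds the transferrin receptor, had −0.71 (adjusted p = 0.0020). Hamp, which encodes hepcidin, the hormone that removes ferroportin from the cell surface, did not pass the filter on low counts. It had 1 to 11 counts in each of the 7 normoxic libraries (1.96 ± 1.01 CPM, SD, n = 7), 42 in all, and 0 counts in each of the 6 hyperoxic ones. Against a floor of 3 counts over the hyperoxic group this is at least 13.1-fold lower. In the fit with no filter its adjusted p was 7.9e-04 (edgeR).

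**Figure D5:**
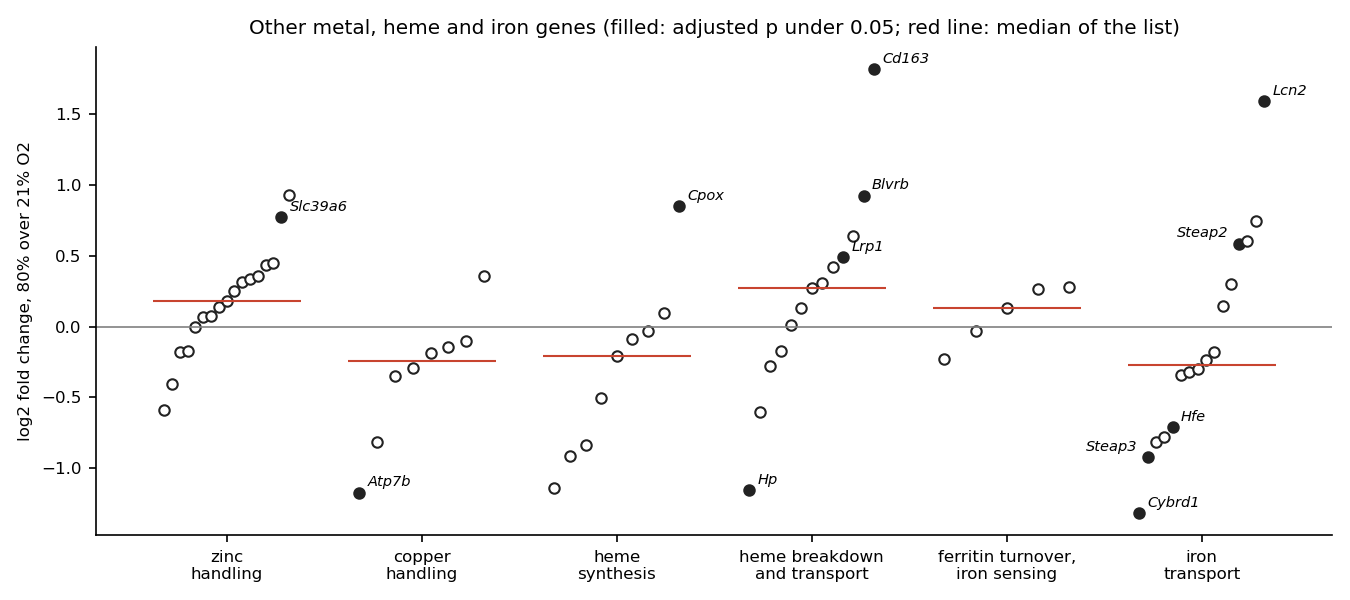
Log2 fold change of 68 other metal, heme and iron genes, 80% over 21% O2, by list. Each point is a gene, filled and named where the adjusted p was under 0.05 (edgeR, all genes), and red lines are list medians. Called genes lie on both sides of 0, with Cd163 at 1.82 the highest and Cybrd1 at −1.32 the lowest.

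Markers of the cell types in whole lung moved unevenly. For 9 markers of alveolar macrophages the summed level was 466 to 680 CPM in normoxia and 217 to 881 CPM in hyperoxia, where 217 was Hyperoxia 1 and the rest were 637 or above. Of these markers 4 fell (Ear2, Siglecf, Krt79 and Abcg1) and Mrc1 rose. Without Hyperoxia 1 Chil3 was also called higher (log2 fold change 1.02, adjusted p = 5.2e-04, edgeR), and Krt79 was not called (adjusted p = 0.056, edgeR). Marker calls here use edgeR with all libraries unless stated. For 8 markers of monocytes and interstitial macrophages it was 222 to 310 and 205 to 409 CPM, with F13a1 and Fn1 higher and Ccr2 and Ly6c2 lower. For 7 neutrophil markers it was 104 to 202 and 45.0 to 259 CPM, with Mmp8 higher. For 7 erythroid markers it was 194 to 3402 and 169 to 2864 CPM, with Hbb-bt lower. The 7 endothelial markers summed to 3813 to 6057 and 2518 to 5955 CPM, with Egfl7 higher and Tek and Ptprb lower. The 7 fibroblast markers summed to 1964 to 2704 and 2268 to 2857 CPM, with Pdgfra higher and Npnt lower. The 9 proliferation markers summed to 82.9 to 124 and 49.3 to 92.7 CPM, and of the 6 tested 0 were called in edgeR, 2 had an unadjusted p under 0.05, and 1 was called by DESeq2 and 1 by limma-voom. No marker was at 0 in every library. The part of these cells in the results above was not tested.

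As a description of how the members vary within groups, genes were ranked by the correlation of their deviations from the group means in log2 CPM. For the mean of Mt1 and Mt2 the 5 genes most like it, of 10110, were Ppp1r14b (r = 0.98), Vps25 (0.97), Ormdl3 (0.96), Serpina3n (0.96) and Eif5a (0.96) over 13 libraries. Without Hyperoxia 1, over 12 libraries, they were Ppp1r14b (0.97), Mrpl28 (0.96), Ap1m1 (0.95), Vps25 (0.95) and Tmem160 (0.94). For Tfrc they were Prep (0.95), Prr14 (0.94), Mapkapk5 (0.94), St6gal1 (0.94) and Fkbp8 (0.93) over 13 libraries, and Cyp4x1 (0.89), Dapk2 (0.87), Sil1 (0.87), Prep (0.87) and 2810403A07Rik (0.87) over 12. All these values come from the same few libraries and share their depth and the deviations of Hyperoxia 1 and Normoxia 6. No such ranking was made for Hmox1, which was not tested.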

How the data were processed

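Lung RNA was sequenced with the Lexogen QuantSeq 3′ mRNA kit in 13 libraries. The authors used kallisto, run through BioJupies, and deposited 1 whole-number count for each gene symbol and library. They also deposited log10 values, which equal log10 of CPM plus 1 on each library's total count. The submitters' processing notes name mm10 and limma 3.54.2, and the annotation is not given in the sources used here. Strand use in counting is not stated.

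Counts were tested with edgeR 4.0.16 in R 4.3.3 (glmQLFit, glmQLFTest, TMM, filterByExpr), with all 13 libraries and no covariate. Benjamini-Hochberg adjustment ran over 12496 genes, with a threshold of 0.05. Standard errors come from the log2 fold change and F. Log2 CPM uses a prior count of 2. The 3 ratios used exact permutation over libraries. The fits were tested on simulated data. Alternatives were DESeq2 1.42.0, limma-voom and limma on the deposited values (limma 3.58.1), library size alone, other filters, a replicate block, the letter run, each library left out, and, added after the data were seen, Hyperoxia 1 and Normoxia 6 left out together and Hyperoxia 1 left out within its letter run.

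The members, lists and tests were chosen with earlier results of these data known. The text names all 10 members, then from each of the 9 gene lists the called genes, up to 4 per direction with the largest change. Cell type markers that were called are named after their values were seen. Mtf1, Slc30a1, Alas1, Aco1, Hmox2, Hamp, Mt3, Mt4, the pseudogenes and the genes of the closing lists that did not pass were added for their role.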

Additional observations from a re-analysis of the deposited data

Results flagged for a closer look

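Of 24 sets of values examined, which are the log2 CPM of 9 members and 3 log2 ratios in each group, 7 held a library whose gap to its nearest neighbour took more of the group's range than Dixon's 95% limit allows. At that limit about 1.2 of 24 independent sets would be expected. These sets share their libraries, and the ratios are built from the members. The 7 can therefore not be tested against that number. Hyperoxia 1 was the lowest hyperoxic library for Mt2 (gap 0.666 of the range), Fth1 (0.782) and Ftl1 (0.810), and the highest for the ratio of Mt1 to Mt2 (0.843). Normoxia 6 was the lowest normoxic library for Mt1 (0.589) and Ftl1 (0.614), and the highest for the ratio of Fth1 to Ftl1 (0.715). Both libraries had negative median deviations in genes with short transcripts, −1.16 in Hyperoxia 1 and −0.36 in Normoxia 6. Hyperoxia 3, at −0.40, was lower in such genes than Normoxia 6 and was not among the 7. The part of transcript length in these values was not tested.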

How the results depend on the processing

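Of the 9 members, 4 passed the threshold in the fit reported and in all alternatives but 2. Without Hyperoxia 1 the count was 5, through Fth1 (0.61, adjusted p = 0.032, edgeR), and leaving out the other 12 libraries in turn gave 4. Requiring an absolute log2 fold change over 1.5 as well left 2 members, Mt1 and Mt2, and 2 of the other metal, heme and iron genes. The count of those others ranged from 8 to 17 against 12. The sign of Fth1 turned with limma-voom (−0.21), with limma on the deposited values (−0.30) and with the replicate block (−0.021). That of Ireb2 turned with limma on the deposited values (−0.023) and with library size alone (−0.0054). Leaving out 1 library in turn gave −0.24 to 0.033 for Tfrc, above 0 without Hyperoxia 1, and −0.029 to 0.15 for Ireb2, below 0 without Hyperoxia 3. None of these reversed values was called, and the cause was not tested.

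Leaving out 1 library in turn gave −1.53 to −0.86 for the ratio of Mt1 to Mt2, −0.78 to −0.22 for Fth1 to Ftl1 (−0.22 without Normoxia 6) and −0.74 to −0.48 for Tfrc to Slc40a1. Without Hyperoxia 1 and Normoxia 6 together, the ratios were −1.62 for Mt1 to Mt2 (adjusted p = 0.00649, exact), −0.13 for Fth1 to Ftl1 and −0.48 for Tfrc to Slc40a1 (adjusted p = 0.0552, exact). With the letter run as a term Fth1 to Ftl1 was −0.90. The replicate block used replicates 1 to 6. Of 6 same-numbered pairs 1 correlated above 0.1 in its deviations. The labels do not say whether same-numbered samples were paired, and these correlations cannot decide it. The block gave −0.73 for Tfrc to Slc40a1 (adjusted p = 0.125, exact sign flips), 4 members called and 1291 of 12358 genes called against 2819 of 12496 without it.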

Other observations

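Metallothionein genes belong to several known response programs, and 3 lists of other genes from such programs were read beside them. Of 11 target genes of NRF2, the regulator of the antioxidant response, 6 rose and 0 fell (edgeR, adjusted p under 0.05, with 6 and 0 by DESeq2, 5 and 0 by limma-voom, and 8 and 0 at an unadjusted p under 0.05), with a median log2 fold change of 0.90. Srxn1, which repairs oxidised peroxiredoxin, had 2.47 (10.3 ± 3.37 to 57.6 ± 4.79 CPM), and Gclc, which makes the first step of glutathione synthesis, 2.11. Txnrd1 had 1.84 and Gclm 1.47. These 4 genes did not overlap between the groups, and without Hyperoxia 1 the count was 9 of 11.

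Of 8 acute phase and interleukin 6 response genes tested, 4 rose (Timp1 3.73, Saa3 1.95, Lcn2 1.59 and Stat3 0.71) and 2 fell (Hp −1.16 and Lbp −0.79). Of 9 glucocorticoid-responsive genes tested, 2 rose, Fkbp5 with 2.18 (7.35 ± 2.44 to 33.7 ± 19.4 CPM) and Zbtb16 with 1.33. Without Hyperoxia 1 the acute phase counts were 5 rising and 2 falling of 8. Without it 5 of the 9 glucocorticoid-responsive genes rose, the other 3 being Sgk1 (0.87, adjusted p = 3.3e-04, edgeR), Tsc22d3 (0.75, adjusted p = 0.047) and Klf9 (0.37, adjusted p = 0.042). With all libraries Tsc22d3 had 0.56 (adjusted p = 0.23) and Dusp1 0.48 (adjusted p = 0.60). Over all genes, 22.6% were called with all libraries and 28.5% without Hyperoxia 1. Which of these programs bears on Mt1 and Mt2 was not tested.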
